A study of Mus musculus with 6 samples.

Results

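The 10 genes *Cd28*, *Icos*, *Cd27*, *Cd2*, *Cd5*, *Tnfrsf4*, *Tnfrsf9*, *Tnfrsf18*, *Tnfrsf8* and *Cd226* encode costimulatory receptors of T cells. They were taken by symbol from the gene-name column of the deposited tables, and 10 of 10 were found, among 35602 genes in the count table and 34714 genes in the tables of the remaining pair of libraries. CD4+ T cells from mouse spleen were stimulated through CD3 and CD28 and treated with MAPK13-IN-1, a small-molecule inhibitor of the kinase encoded by *Mapk13*, or with its solvent DMSO, and mRNA was sequenced in 3 libraries per group. The comparison asks which transcripts differ between MAPK13-inhibitors-treated and DMSO-treated CD4+ T cells. Replicates 2 and 3 of both groups were WT splenic CD4+ cells in RPMI medium with fetal bovine serum under CD3/CD28 costimulation, and received either 17.1 µM MAPK13 inhibitor or 0.1 µl DMSO. Their labels place this addition after day 1 of culture, whereas the series design describes 72 h of stimulation with the inhibitor or DMSO present. The labels of the replicate 1 pair state spleen, CD4+ T cells and the treatment, with no replicate number, dose or day, and the number 1 was assigned here. A figure legend of the study gives 17.1 µM and 72 h for its RNA-seq without saying which libraries it covers. This pair was prepared with a stranded mRNA kit, whereas replicates 2 and 3 were prepared with poly-T beads. The study's methods describe a CD4 T cell isolation kit, plate-bound anti-CD3 and anti-CD28 in the medium, so the stimulus in both groups included an antibody to the product of 1 of the 10 genes, CD28. No label says whether the replicates came from separate mice, so p-values measure only the spread between these libraries, which may be technical.

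A T cell needs a second signal beside that of its antigen receptor to divide and survive, and costimulatory receptors deliver it when they meet ligands on antigen-presenting cells. CD28 and ICOS are immunoglobulin-type receptors that recruit phosphoinositide 3-kinase, and CD2, CD5 and CD226 are adhesion-type or scavenger-type surface proteins that tune antigen receptor signaling. CD27, OX40 (*Tnfrsf4*), CD137 (*Tnfrsf9*), GITR (*Tnfrsf18*) and CD30 (*Tnfrsf8*) are TNF receptor superfamily proteins that signal through TRAF adaptors to NF-kB. CD28 and CD27 are present on resting CD4+ T cells, while ICOS, OX40, CD137 and CD30 appear mainly after activation.

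For replicates 2 and 3 the deposited values were whole-number counts per gene, with totals of 26874805 and 28487403 under DMSO and of 33854760 and 32617702 under MAPK13-IN-1. Levels are given as CPM, counts scaled to library size with TMM factors, and a count of 0 allows a level of up to 0.0845 to 0.116 CPM (3 counts, counting error only). At these depths the lowest count of any of the 10 genes in any library was 176, in *Cd226*, and 10 of 10 passed the filter on low counts. The replicate 1 tables hold 1 normalized value per gene, read here as FPKM, a level that accounts for transcript length and depth. That unit was inferred from the values, the depth of this pair is unknown, and with 1 library per group its differences have no replicate check and no p-value. Values are compared between treatments within each of these preparations and never across them.

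The CD4+ T cell label was checked against 10 marker genes, of which 7 were listed in the count table and *Trac*, *Trbc1* and *Trbc2*, the constant segments of the T cell receptor, were not. *Cd4* was measured at 275 and 276 CPM under DMSO against 267 and 283 CPM under MAPK13-IN-1, with a log2 fold change of -0.00064 (SE 0.0544, edgeR adjusted p = 0.993), and at 118 and 146 FPKM in the DMSO and MAPK13-inhibitors libraries of replicate 1. The 7 listed markers summed to 1042 and 1053 CPM under DMSO, 722 and 771 CPM under MAPK13-IN-1, and to 851 and 996 FPKM in the replicate 1 pair, with *Cd4* the most abundant by CPM. Of these 7, 5 passed the test as lower with the inhibitor and 0 as higher, and their median log2 fold change was -0.71, beside 0.012 over the 16269 genes tested. Over those genes 32.3% were called as lower and 31.5% as higher. The genes of the CD3 complex were among the lower ones, with *Cd3e* at -1.37 (SE 0.107, edgeR adjusted p = 2.05e-06), *Cd3g* at -1.56 (SE 0.0886, edgeR adjusted p = 2.73e-07) and *Cd3d* at -0.71 (SE 0.0935, edgeR adjusted p = 8.17e-05). *Thy1*, a pan-T cell surface protein, changed by -1.63 (SE 0.104, edgeR adjusted p = 5.59e-07) and *Lat*, an adaptor of the antigen receptor, by -0.24 (SE 0.0574, edgeR adjusted p = 0.00437), while *Cd247*, the zeta chain, had a log2 fold change of 0.15 (SE 0.0637, edgeR adjusted p = 0.0606). In the MAPK13-inhibitors libraries of the count table, levels of *Cd3d*, *Cd3e*, *Cd3g*, *Thy1* and *Lat* were thus lower than in DMSO. *Cd4* did not pass the threshold, and its sign changed under 5 of the scaling, filter and tool alternatives and without MAPK13-IN-1 replicate 2 (0.041 with adjusted p 0.443). The call of *Lat* was lost with library totals, at -0.11 with adjusted p 0.116, and without DMSO replicate 3, at -0.22 with adjusted p 0.0669, over an adjusted p range of 1.41e-06 to 0.116. *Cd247* was called as higher under 6 of 11 alternatives, without MAPK13-IN-1 replicate 3 among them at 0.19 with adjusted p 0.000993, over a range of 0.000993 to 0.478 and log2 fold changes of 0.10 to 0.28. In bulk samples fewer cells of a type and less RNA per cell cannot be told apart.

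Marker genes of other cells were measured in the same libraries. Of 11 B cell markers 10 were listed (*Ighm* was not), and they summed to 2158 and 2076 CPM under DMSO, 3055 and 2946 CPM under MAPK13-IN-1 and to 218 and 245 FPKM in the replicate 1 pair. *Cd74*, the invariant chain of MHC class II, which other antigen-presenting cells also make, was the most abundant at 1231 and 1176 CPM under DMSO against 1921 and 1814 CPM under MAPK13-IN-1, and 0 of the 10 were at 0. Of the 10, 8 passed the test as higher with the inhibitor and 2 as lower, *Cd22* and *Fcer2a*. Of all genes tested 31.5% passed as higher and 32.3% as lower. In replicate 1, 8 of the 10 had lower values with the inhibitor. B lineage transcripts were therefore part of all 4 libraries of the count table, and their part in the result was not tested.

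Of 7 regulatory T cell markers, 3 were lower with the inhibitor (*Foxp3*, *Ikzf4* and *Il2ra*), 1 was higher (*Lrrc32*), and they summed to 1192 and 1187 CPM under DMSO, 523 and 601 CPM under MAPK13-IN-1 and to 421 and 304 FPKM in replicate 1, with *Il2ra*, which is also on the list of activation genes, the most abundant. The other markers, *Ikzf2* (-0.011), *Nrp1* (-0.41) and *Itgae* (0.14), did not pass the threshold, all as log2 fold changes. For this list and the marker lists below, the shares over all genes tested are 32.3% called as lower and 31.5% as higher. In replicate 1, 5 of the 7 had higher values with the inhibitor. Without *Il2ra* the other 6 summed to 228 and 224 CPM under DMSO, 155 and 171 CPM under MAPK13-IN-1 and to 37.1 and 66.8 FPKM in replicate 1, where the direction was thus the opposite of that with *Il2ra*. The lower sum of these 6 in the count table depended on *Foxp3* and *Ikzf4*, with means of 59.5 and 73.0 CPM under DMSO and 22.0 and 32.3 CPM under MAPK13-IN-1. *Lrrc32* went the other way, with means of 38.2 and 54.8 CPM. Regulatory T cells carry GITR, OX40 and CTLA-4 at high levels. *Foxp3*, their defining transcription factor, was measured at 58.4 and 60.6 CPM under DMSO against 20.3 and 23.8 CPM under MAPK13-IN-1, a log2 fold change of -1.44 (SE 0.0926, edgeR adjusted p = 5.90e-07). In replicate 1 *Foxp3* stood at 13.6 FPKM under DMSO and 14.6 under the inhibitor, opposite in sign. The part of regulatory T cells in the receptor changes was not tested. The 2 CD8 markers *Cd8a* and *Cd8b1* summed to 11.7 and 10.9 CPM under DMSO, 5.49 and 7.85 CPM under MAPK13-IN-1 and to 3.49 and 8.39 FPKM in replicate 1, with *Cd8b1* the most abundant, and both were lower with the inhibitor, at -1.41 (SE 0.303, edgeR adjusted p = 0.00208) and -0.60 (SE 0.174, edgeR adjusted p = 0.0115). The call of *Cd8b1* was lost with DESeq2, at -0.59 with adjusted p 0.0535, and without MAPK13-IN-1 replicate 2 the log2 fold change was -0.38. The 5 NK cell markers summed to 1.43 and 2.28 CPM under DMSO, 1.69 and 1.71 CPM under MAPK13-IN-1 and to 0.644 and 4.40 FPKM in replicate 1, with *Eomes* the most abundant, *Klra8* at 0 in every count library and 1 of 5 tested, with 0 called. Of the 10 macrophage and dendritic cell markers 7 were tested and 6 were higher, with sums of 16.2 and 15.3 CPM under DMSO, 51.8 and 44.2 CPM under MAPK13-IN-1 and 4.27 and 14.6 FPKM in replicate 1 and *Cd68* the most abundant. Neutrophil markers summed to 0.233 and 0.221 CPM under DMSO, 0.535 and 0.767 CPM under MAPK13-IN-1 and to 0.533 and 0.351 FPKM in replicate 1, with *Mpo* the most abundant over the 4 count libraries, *S100a9* at 0 in all 4 and 1 of 5 tested. This was *Mpo*, called as higher by edgeR but not by DESeq2, with 2 and 2 counts in DMSO and 17 and 16 counts with the inhibitor. *S100a8* and *Elane* had counts only in DMSO replicate 3, 3 and 1. *Ly6g* had 4 and 0 counts in DMSO and 2 and 10 with the inhibitor. The higher neutrophil sum in both MAPK13-inhibitors libraries thus depended on *Mpo*. Erythroid markers summed to 7.83 and 7.54 CPM under DMSO, 90.0 and 64.6 CPM under MAPK13-IN-1 and to 0.931 and 1.94 FPKM in replicate 1, with *Hbb-bs* the most abundant over the 4 count libraries, 6 of 7 tested higher and none at 0 in every library. Platelet markers summed to 9.93 and 9.05 CPM under DMSO, 17.3 and 18.4 CPM under MAPK13-IN-1 and to 0.965 and 1.95 FPKM in replicate 1, with *Itga2b* the most abundant, *Ppbp* at 0 in all 4 count libraries and 2 of 2 tested higher. Regulatory T cell sums, with *Il2ra* or without it through *Foxp3* and *Ikzf4*, and CD8 sums were thus lower in both MAPK13-inhibitors libraries of the count table. B cell, macrophage, erythroid and platelet sums were higher in both, as was the neutrophil sum through *Mpo*. The cells had been sorted or isolated as CD4+ cells, and the part of these other transcripts in the result was not tested.

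In the count table, 9 of the 10 costimulatory receptor genes were lower in MAPK13-inhibitors-treated than in DMSO-treated CD4+ T cells at an adjusted p under 0.05, and 1, *Icos*, was higher (quasi-likelihood fit in edgeR, p-values adjusted over 16269 genes by Benjamini-Hochberg). None of the 10 changed sign under any of 11 alternatives. Over all genes tested 63.8% were called, 32.3% as lower and 31.5% as higher, so that a call in either direction was common in these libraries, while 9 of 10 stood against 32.3% for lower calls. The balance of the background depended on the scaling, with 4302 genes called as lower and 6176 as higher with library totals and 4633 genes called as lower and 5823 as higher with upper-quartile scaling, while the 10 genes stayed at 9 lower and 1 higher under both. A log2 fold change under -1 with an adjusted p under 0.05 was reached by 6 of the 10, *Cd2*, *Cd5*, *Tnfrsf4*, *Tnfrsf9*, *Tnfrsf18* and *Tnfrsf8*, against 10.4% of all genes. The groups did not overlap in CPM for 10 of 10 genes, as for 83% of all genes tested, so the lack of overlap in itself was near the background. The median log2 fold change of the 10 was -1.23, beside 0.012 over all genes tested. In the replicate 1 pair 7 of the 10 had a higher value with the inhibitor and 3, *Cd2*, *Cd5* and *Tnfrsf4*, a lower one, where 60.2% of the tested genes listed there had a higher value. The median log2 ratio of the 10 in that pair was 0.19, beside 0.069 over 15825 genes. Of the 9 genes that were lower in the count table, 6 were higher in the replicate 1 pair, and among all genes called lower in the count table and listed there this share was 43.1%.

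**Figure D1:**
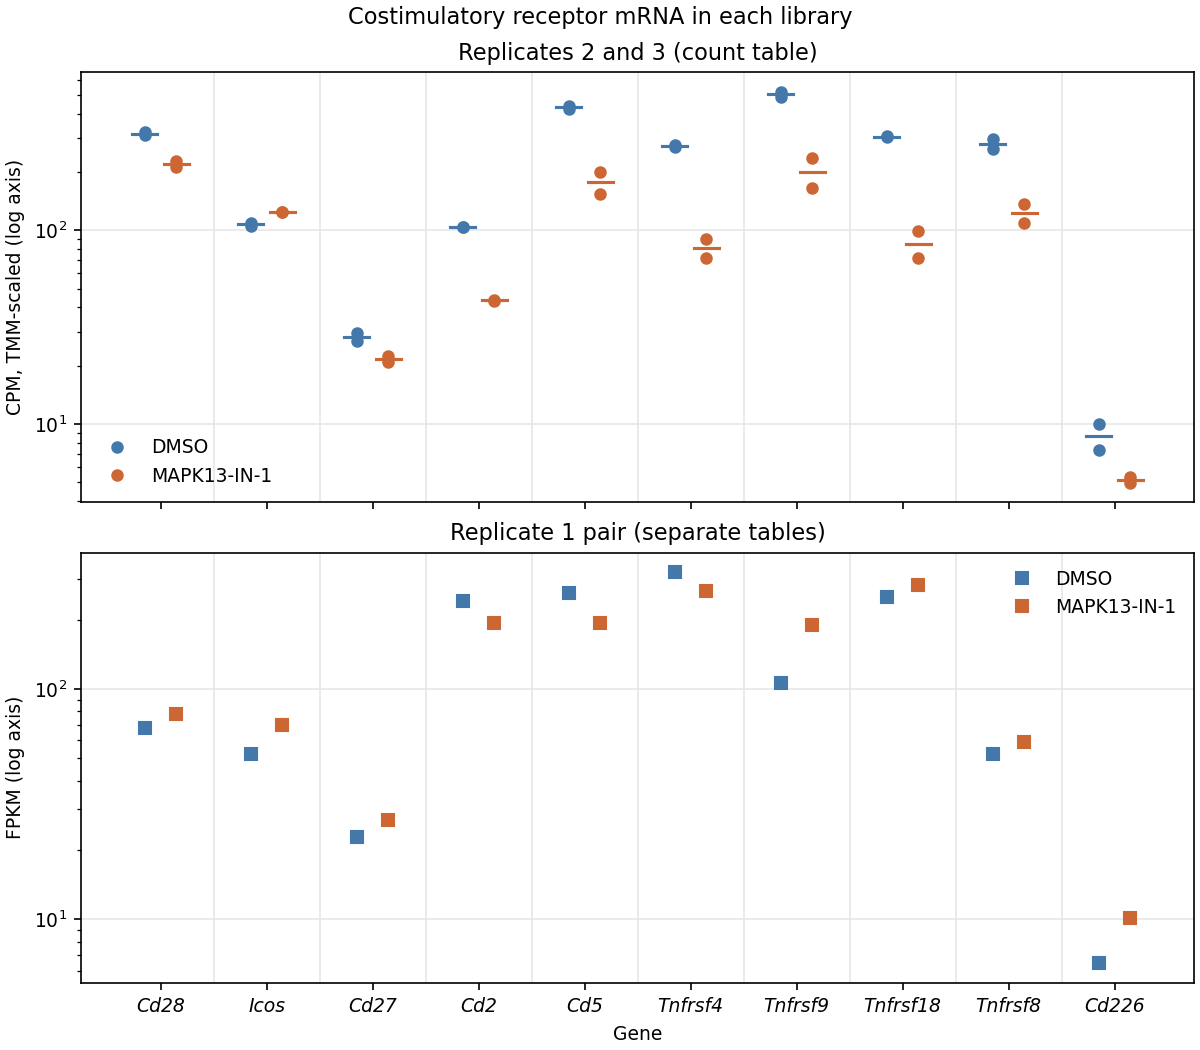
Level of each costimulatory receptor gene in each library, as TMM-scaled CPM in replicates 2 and 3 (upper plot, points are libraries and bars are means of 2) and as FPKM in the replicate 1 pair (lower plot, 1 library per group), both on log axes. In the upper plot 9 of 10 genes lie lower with MAPK13-IN-1 and *Icos* lies higher, and in the lower plot 7 of 10 lie higher.

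*Cd28* encodes the receptor for CD80 and CD86 and the main costimulatory receptor of resting T cells. It was measured at 311 and 322 CPM under DMSO against 212 and 227 CPM under MAPK13-IN-1, and both DMSO libraries lay above both MAPK13-inhibitors libraries. The group means were 316 ± 7.69 and 219.6 ± 11.2 CPM (SD, n = 2), a log2 fold change of -0.53 (SE 0.0573, edgeR adjusted p = 2.01e-05), or 1.44-fold lower. In the replicate 1 pair *Cd28* stood at 67.8 FPKM under DMSO and 78.1 under the inhibitor, a log2 ratio of 0.20 on the log2(FPKM + 1) scale and opposite in sign to the count table. *Icos* encodes the inducible relative of CD28, which binds ICOS ligand and supports help to B cells. Its levels were 109.6 and 106 CPM under DMSO against 124 and 125 CPM under MAPK13-IN-1, so that the MAPK13-inhibitors libraries were the higher ones, without overlap. The difference was small, 1.16-fold between means of 108 ± 2.64 and 124 ± 0.833 CPM (SD, n = 2), with a log2 fold change of 0.21 (SE 0.0589, edgeR adjusted p = 0.0102). *Icos* was no longer called when either DMSO library was left out, at an adjusted p of 0.0833 without DMSO replicate 2 and 0.180 without DMSO replicate 3 (edgeR). With library totals its log2 fold change was 0.33. Over the 11 alternatives its adjusted p ranged from 0.000297 to 0.180. In replicate 1 *Icos* stood at 52.3 and 69.9 FPKM, a log2 ratio of 0.41, and it was the 1 gene of the 10 that was higher with the inhibitor in both preparations.

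*Cd2* encodes an adhesion receptor that binds CD48 and brings the T cell close to its partner. It was measured at 104 and 104 CPM under DMSO against 43.0 and 43.9 CPM under MAPK13-IN-1, and libraries of the same group lay close together. Between means of 104 ± 0.389 and 43.5 ± 0.689 CPM (SD, n = 2) *Cd2* was 2.39-fold lower with the inhibitor, a log2 fold change of -1.26 (SE 0.0649, edgeR adjusted p = 1.60e-07). The replicate 1 pair had 241 FPKM under DMSO and 193 under the inhibitor, a log2 ratio of -0.32, lower as in the count table. *Cd5* encodes a scavenger-type receptor that accompanies the antigen receptor and dampens its signal, and its level follows antigen receptor signal strength. Its levels were 426 and 439 CPM under DMSO against 154 and 200.1 CPM under MAPK13-IN-1. The MAPK13-inhibitors libraries were both lower than either DMSO library and differed more between themselves, with means of 432 ± 9.54 and 177 ± 32.6 CPM (SD, n = 2). This corresponded to a log2 fold change of -1.29 (SE 0.0986, edgeR adjusted p = 1.76e-06), and in replicate 1 *Cd5* fell in the same direction, from 262 to 193 FPKM, a log2 ratio of -0.44. *Cd226* encodes DNAM-1, which binds CD155 (*Pvr*) and nectin-2 and promotes adhesion and effector function. With counts of 190 and 272 under DMSO and of 176 and 180 under MAPK13-IN-1, it had the fewest counts of the 10. These counts corresponded to 7.37 and 10.0 CPM under DMSO against 4.96 and 5.31 CPM under MAPK13-IN-1, and the DMSO libraries were higher but differed between themselves. The log2 fold change was -0.76 (SE 0.175, edgeR adjusted p = 0.00321), and without DMSO replicate 3 it was -0.53 with an adjusted p of 0.0475 (range over the 11 alternatives 5.56e-06 to 0.0475). In replicate 1 *Cd226* stood at 6.45 and 10.2 FPKM, a log2 ratio of 0.59 in the opposite direction.

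Of the 10 genes, 5 encode TNF receptor superfamily proteins, and the 2 largest decreases, of *Tnfrsf18* and *Tnfrsf4*, were among them. *Tnfrsf18* encodes GITR, which activated T cells and regulatory T cells carry. It was measured at 305 and 306 CPM under DMSO against 72.0 and 98.9 CPM under MAPK13-IN-1. Both MAPK13-inhibitors libraries of the count table were far below both DMSO libraries, with means of 306 ± 0.328 and 85.5 ± 19.0 CPM (SD, n = 2), a 3.58-fold decrease and a log2 fold change of -1.84 (SE 0.115, edgeR adjusted p = 4.88e-07). *Tnfrsf4* encodes OX40, a receptor that prolongs survival of activated CD4+ T cells. Its levels were 277 and 271 CPM under DMSO against 72.1 and 90.0 CPM under MAPK13-IN-1. The decrease was of similar size, 3.38-fold between means of 274 ± 4.27 and 81.1 ± 12.6 CPM (SD, n = 2), with a log2 fold change of -1.76 (SE 0.0902, edgeR adjusted p = 1.60e-07). In the replicate 1 pair these neighbors went different ways, *Tnfrsf4* from 321 to 266 FPKM (log2 ratio -0.27) and *Tnfrsf18* from 249.8 to 282 FPKM (log2 ratio 0.18). Whether the ratios of *Tnfrsf4* and *Tnfrsf18* in that pair differ from each other was not tested.

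*Tnfrsf9* encodes CD137, a receptor induced by activation that supports T cell expansion. It was measured at 520.5 and 489.8 CPM under DMSO against 166 and 236 CPM under MAPK13-IN-1, and the MAPK13-inhibitors libraries, although both lower, stood further apart than those of DMSO. The means were 505 ± 21.7 and 201 ± 50 CPM (SD, n = 2), a 2.51-fold decrease, a log2 fold change of -1.33 (SE 0.126, edgeR adjusted p = 7.49e-06). In replicate 1 the value rose from 106 to 189 FPKM, a log2 ratio of 0.83, the highest of the 10 in that pair. *Tnfrsf8* encodes CD30, an activation marker of T and B cells. Its levels were 265 and 297 CPM under DMSO against 109 and 137 CPM under MAPK13-IN-1, without overlap between the groups. The means were 281 ± 22.8 and 123 ± 19.7 CPM (SD, n = 2), 2.29-fold lower with the inhibitor, a log2 fold change of -1.19 (SE 0.0976, edgeR adjusted p = 2.77e-06), whereas replicate 1 had 52.0 and 59.1 FPKM, a log2 ratio of 0.18. *Cd27* encodes the TNF receptor of resting and memory T cells, which binds CD70. It was measured at 26.8 and 29.3 CPM under DMSO against 20.9 and 22.5 CPM under MAPK13-IN-1, and although the groups did not overlap their distance was small. The means were 28.1 ± 1.77 and 21.7 ± 1.16 CPM (SD, n = 2), with a log2 fold change of -0.37 (SE 0.0960, edgeR adjusted p = 0.00612), and replicate 1 had 22.7 and 27.1 FPKM, a log2 ratio of 0.25. Without DMSO replicate 3 *Cd27* was no longer called, at a log2 fold change of -0.32 and an adjusted p of 0.0764 (edgeR). With library totals the log2 fold change was -0.25. Over the 11 alternatives its adjusted p ranged from 4.19e-05 to 0.0764. Thus, of these 5 genes, *Tnfrsf4*, *Tnfrsf18*, *Tnfrsf9* and *Tnfrsf8* had log2 fold changes between -1.84 and -1.19 and *Cd27* had -0.37, while *Icos*, which also appears mainly after activation, had 0.21. Whether these changes differ from one another was not tested.

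**Figure D2:**
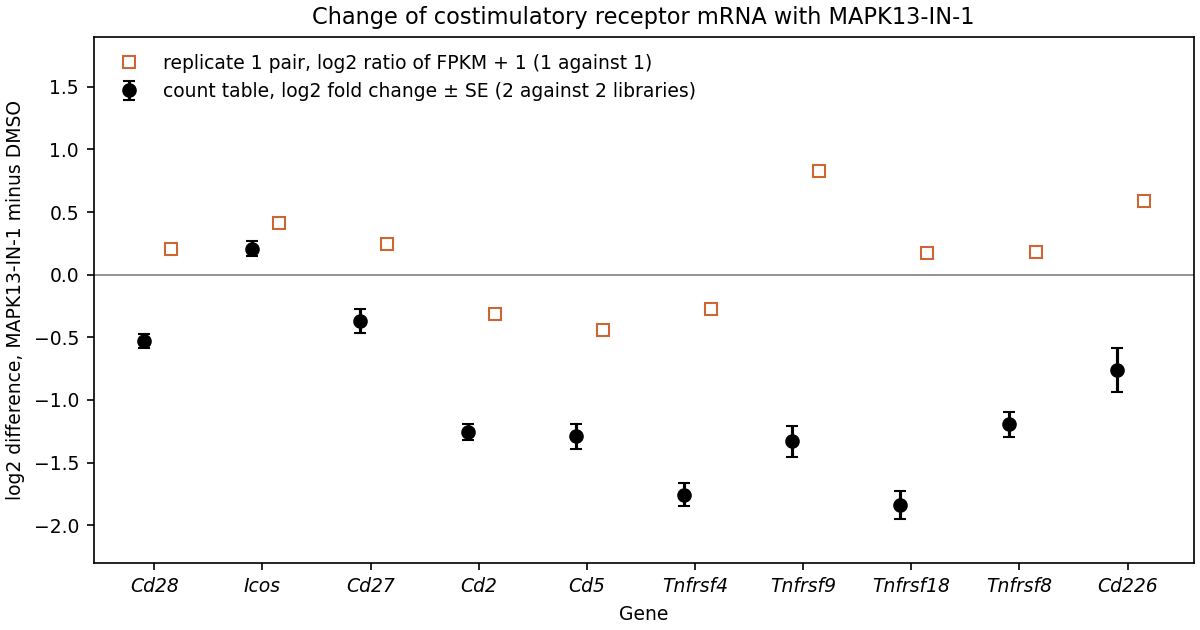
Log2 difference between MAPK13-IN-1 and DMSO for each costimulatory receptor gene, with black points for the edgeR log2 fold change in the count table (bars are ± SE, 2 against 2 libraries) and open squares for the log2 ratio of FPKM + 1 in the replicate 1 pair (1 against 1, no error). The black points run from -1.84 (*Tnfrsf18*) to 0.21 (*Icos*), and the squares lie above 0 for 7 of 10 genes.

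Per kilobase of merged exon length, the order of mean levels in the DMSO libraries of the count table was *Tnfrsf4* (201 CPM per kilobase), *Tnfrsf18* (201), *Tnfrsf9* (186), *Cd5* (87.8), *Tnfrsf8* (81.2), *Cd2* (59.7), *Cd28* (51.7), *Icos* (31.4), *Cd27* (12.1) and *Cd226* (1.78). *Tnfrsf4* and *Tnfrsf18* overlapped over the DMSO libraries in this order, and no other neighbors did. In the MAPK13-inhibitors libraries *Tnfrsf9* had the highest mean at 73.8 CPM per kilobase, before *Tnfrsf4* at 59.4 and *Tnfrsf18* at 56.1. The 3 overlapped over these libraries. *Icos* moved from rank 8 to rank 4 by its mean, at 36.3 CPM per kilobase beside 35.9 for *Cd5*, 35.9 for *Cd28* and 35.5 for *Tnfrsf8*, but these 4 genes overlapped and their ranks were not separated. *Cd27* and *Cd226* kept ranks 9 and 10. By FPKM in DMSO replicate 1, *Tnfrsf4* ranked 1, *Cd5* ranked 2, *Tnfrsf18* ranked 3 and *Cd2* ranked 4, and *Cd27* and *Cd226* were again the lowest. The OX40 and GITR transcripts were thus among the 3 highest of the 10 per length in every library group of both preparations.

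The ligands of these receptors are usually made by antigen-presenting cells, B cells among them, and some also by activated T cells. Of 11 ligand genes 10 were tested, 6 were higher with the inhibitor, 1 was lower and 3 did not pass the threshold, with a median log2 fold change of 0.65 beside 0.012 over all genes tested. Of all genes tested 31.5% were called as higher and 32.3% as lower. *Tnfsf4*, which encodes OX40 ligand, was measured at 29.7 and 27.4 CPM under DMSO against 153 and 131 CPM under MAPK13-IN-1. It was 4.98-fold higher with the inhibitor, a log2 fold change of 2.32 (SE 0.0901, edgeR adjusted p = 2.91e-08), and its receptor gene *Tnfrsf4* was 3.38-fold lower. *Tnfsf9*, the ligand gene of CD137, changed by 1.45 (SE 0.117, edgeR adjusted p = 2.57e-06), between means of 6.81 ± 0.358 and 18.6 ± 0.346 CPM (SD, n = 2). *Cd80* and *Cd86*, the ligand genes of CD28, changed by 1.04 (SE 0.0730, edgeR adjusted p = 9.98e-07) and 0.71 (SE 0.0579, edgeR adjusted p = 2.75e-06). *Cd70*, the ligand gene of CD27, had 2.83 and 2.90 CPM in DMSO and 3.75 and 4.96 CPM with the inhibitor. Its call, at 0.60 (SE 0.21, edgeR adjusted p = 0.0281), was lost with DESeq2 and in 3 of the 4 fits without 1 library, at 0.57 with adjusted p 0.0850 without DMSO replicate 2, 0.61 with adjusted p 0.0697 without DMSO replicate 3 and 0.38 with adjusted p 0.156 without MAPK13-IN-1 replicate 3 (range over the 11 alternatives 0.00131 to 0.156). For 5 receptors, *Tnfrsf4*, *Tnfrsf9*, *Cd28*, *Cd27* and *Cd226*, the receptor gene was thus lower and at least 1 ligand gene higher in the count table. *Pvr*, the higher ligand gene of CD226, changed by 0.95 (SE 0.0670, edgeR adjusted p = 1.01e-06), while *Nectin2* had a log2 fold change of -0.43 (SE 0.226, edgeR adjusted p = 0.120) and was called as lower without DMSO replicate 3, at -0.68 with adjusted p 0.0377 (range 0.0377 to 0.693, with log2 fold changes of -0.68 to -0.16). *Tnfsf8*, which encodes CD30 ligand, was the exception that fell with its receptor, from 327 and 346 CPM to 89.0 and 91.8 CPM, a log2 fold change of -1.90 (SE 0.0587, edgeR adjusted p = 1.04e-08). *Icosl* at -0.31 (SE 0.186, edgeR adjusted p = 0.166), with -0.19 under library totals, and *Cd48* at 0.10 (SE 0.0753, edgeR adjusted p = 0.265) did not pass the threshold, although *Cd48* did with library totals and without MAPK13-IN-1 replicate 2, at 0.23 with adjusted p 0.0216 and 0.16 with adjusted p 0.0343 (range 0.0216 to 0.746, with log2 fold changes of 0.028 to 0.23). *Tnfsf18*, the GITR ligand gene, was below the filter with 0 and 3 counts in DMSO and 10 and 8 counts with the inhibitor. In replicate 1 the same 6 ligand genes had higher values with the inhibitor, among them *Tnfsf4* (7.24 and 93.6 FPKM), *Tnfsf9* (1.68 and 11.5 FPKM), *Cd80* (5.43 and 35.7 FPKM) and *Cd70* (1.68 and 28.3 FPKM), and *Tnfsf8* had a lower one (221 and 149 FPKM). The 7 called ligand changes had the same sign in both preparations, as most called changes did, since 33.6% of the 10193 called genes listed in both had the opposite sign in replicate 1 to that of replicates 2 and 3.

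Inhibitory receptors compete for some of these ligands. *Ctla4*, whose product takes CD80 and CD86 from CD28, was measured at 256 and 245 CPM under DMSO against 72.8 and 89.8 CPM under MAPK13-IN-1. It was 3.08-fold lower with the inhibitor, a log2 fold change of -1.62 (SE 0.0883, edgeR adjusted p = 2.07e-07), and in replicate 1 it stood at 84.9 and 112 FPKM, in the opposite direction. *Cd96*, which binds CD155 as CD226 does, was higher at 0.61 (SE 0.100, edgeR adjusted p = 0.000369), and *Tigit*, a further CD155 receptor, had a log2 fold change of -0.15 (SE 0.0906, edgeR adjusted p = 0.179) with overlapping groups and was called as lower without MAPK13-IN-1 replicate 3 at -0.19 with adjusted p 0.0203 (range 0.0203 to 0.882, with log2 fold changes of -0.28 to -0.021).

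The TNF receptor superfamily members signal through TRAF adaptors and the non-canonical NF-kB relay. Of 9 relay genes 6 were lower, 2 were higher and 1 did not pass the threshold, with a median log2 fold change of -0.23. The shares over all genes tested were 32.3% called as lower and 31.5% as higher. *Nfkb2*, the precursor subunit of this pathway, was measured at 729.9 and 748 CPM under DMSO against 298 and 348 CPM under MAPK13-IN-1, a log2 fold change of -1.19 (SE 0.0703, edgeR adjusted p = 3.29e-07). *Relb*, its partner subunit, changed by -1.46 (SE 0.0849, edgeR adjusted p = 3.06e-07), and *Map3k14*, the kinase NIK that starts the relay, by -0.97 (SE 0.0712, edgeR adjusted p = 1.33e-06). The downstream subunits and their kinase were thus lower together in the count table. Among the adaptors, *Traf1* was lower at -0.52 (SE 0.0789, edgeR adjusted p = 0.000209) and *Traf2* at -0.18 (SE 0.0692, edgeR adjusted p = 0.0419). The call of *Traf2* was lost under 8 of 11 alternatives, -0.054 with adjusted p 0.523 with library totals, -0.10 with adjusted p 0.238 with upper-quartile scaling, -0.15 with adjusted p 0.307 without DMSO replicate 2 and -0.23 with adjusted p 0.101 without DMSO replicate 3 among them (range 0.00558 to 0.523). *Traf5* was higher at 0.96 (SE 0.102, edgeR adjusted p = 1.67e-05) and *Traf3* had a log2 fold change of 0.10 (SE 0.0609, edgeR adjusted p = 0.185). *Traf3* was called as higher under 3 of 11 alternatives, with upper-quartile scaling at 0.18 with adjusted p 0.0268, library totals at 0.22 with adjusted p 0.00891 and without MAPK13-IN-1 replicate 3 at 0.13 with adjusted p 0.0363 (range 0.00891 to 0.587). The ubiquitin ligase genes moved apart, with *Birc2* higher at 0.37 (SE 0.0828, edgeR adjusted p = 0.00267) and *Birc3* lower at -0.23 (SE 0.0583, edgeR adjusted p = 0.00609), a call that was lost with library totals at -0.10 with adjusted p 0.148 and without DMSO replicate 3 at -0.23 with adjusted p 0.0564 (range 1.76e-06 to 0.148). In replicate 1 *Nfkb2* and *Traf1* had higher values with the inhibitor, at 153 and 274 FPKM and at 56.0 and 153 FPKM, and *Relb* stood at 53.3 and 51.6 FPKM.

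Of 17 genes that relay signals of CD28, ICOS, CD2 and CD5, 7 were lower, 5 were higher and 5 did not pass the threshold, with a median log2 fold change of -0.056. These counts were near the shares over all genes tested, 32.3% called as lower and 31.5% as higher. *Lck*, the Src family kinase that binds CD4 and phosphorylates CD3 chains, changed by -1.20 (SE 0.0605, edgeR adjusted p = 1.40e-07), and *Prkcq*, the protein kinase C of the T cell synapse, by -1.20 (SE 0.0769, edgeR adjusted p = 5.59e-07). Both kinase genes were lower in replicate 1 as well, *Lck* at 182 and 139 FPKM and *Prkcq* at 38.0 and 24.3 FPKM. *Cd2bp2*, named for its binding to the CD2 tail, changed by -0.87 (SE 0.0623, edgeR adjusted p = 1.14e-06), and *Grap2*, an adaptor that binds CD28, by -0.70 (SE 0.0619, edgeR adjusted p = 4.72e-06). *Tbk1*, a kinase that binds the ICOS tail, went the other way at 0.72 (SE 0.0691, edgeR adjusted p = 8.25e-06).

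Among 14 other costimulatory or SLAM family receptors, 13 were tested, 6 were lower and 4 higher, with a median log2 fold change of -0.085. *Slamf1* changed by -1.22 (SE 0.0931, edgeR adjusted p = 1.74e-06) and *Cd6*, a scavenger-type relative of CD5, by -0.84 (SE 0.0668, edgeR adjusted p = 2.36e-06), while *Slamf6*, which encodes Ly108, was higher at 1.41 (SE 0.0607, edgeR adjusted p = 5.20e-08), as was the tetraspanin gene *Cd81* at 0.60 (SE 0.0528, edgeR adjusted p = 4.34e-06). The remaining higher genes were *Tnfrsf1b* and *Cd7*, whose call was lost with DESeq2 and without DMSO replicate 3, at 0.78 with adjusted p 0.0837 (range 0.000648 to 0.0837), and *Havcr1* was below the filter. Of 22 other TNF receptor superfamily genes 19 were tested, and 2 were lower and 10 higher, with a median log2 fold change of 0.33. Over all genes tested 32.3% were called as lower and 31.5% as higher. *Tnfrsf1b*, which encodes TNF receptor type II, was measured at 111 and 105 CPM under DMSO against 258 and 250.3 CPM under MAPK13-IN-1, a log2 fold change of 1.23 (SE 0.0580, edgeR adjusted p = 9.69e-08). *Tnfrsf26* changed by 1.68 (SE 0.0867, edgeR adjusted p = 1.60e-07) and *Tnfrsf13b*, a receptor of B cells, by 0.33 (SE 0.0644, edgeR adjusted p = 0.00126), and *Ngfr* had 2 and 0 counts in DMSO and 29 and 32 counts with the inhibitor. *Tnfrsf25*, a costimulatory TNF receptor of T cells, was lower at -0.73 (SE 0.137, edgeR adjusted p = 0.000913), and the other lower gene was *Tnfrsf1a*, whose call was lost without DMSO replicate 3, at -0.40 with adjusted p 0.0535 (range 1.42e-07 to 0.0535). Both lists hold *Tnfrsf1b*, *Tnfrsf14* and *Tnfrsf25*. *Tnfrsf11b*, *Tnfrsf17* and *Edar* were below the filter. Most TNF receptor superfamily genes outside the 10 were therefore not called as lower with the inhibitor, which also holds for most genes tested. A test of the difference between these lists was not made.

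**Figure D3:**
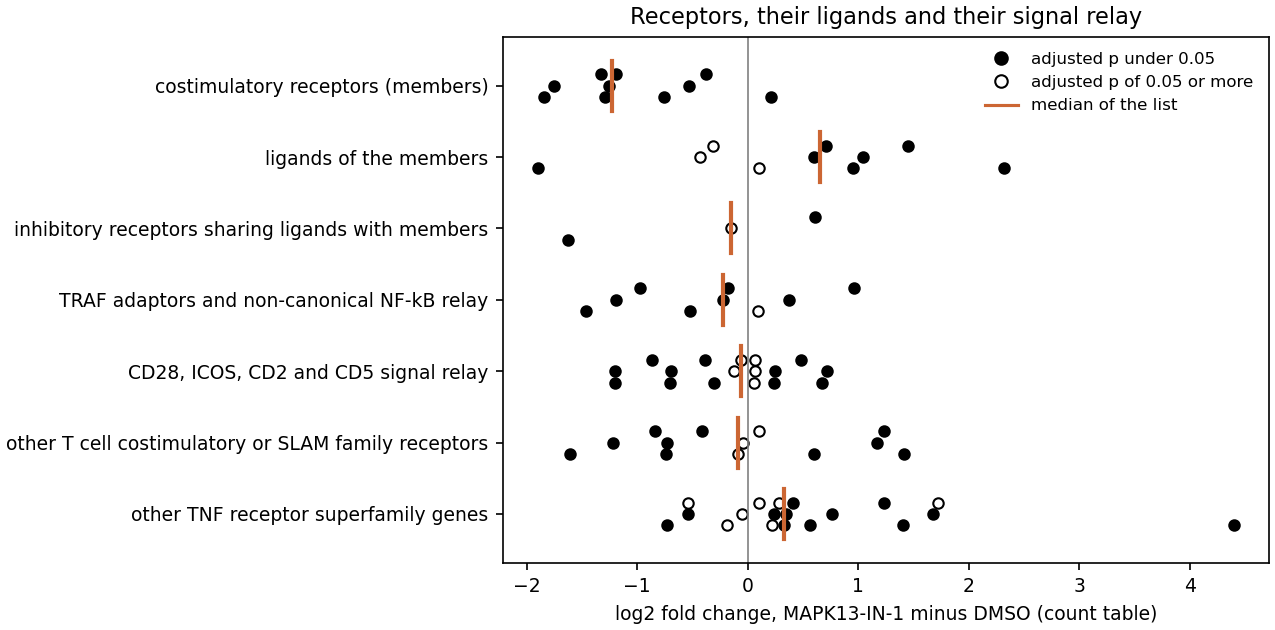
The edgeR log2 fold change, MAPK13-IN-1 minus DMSO in the count table, of each tested gene in 7 lists (filled points have an adjusted p under 0.05, open points do not, and the vertical bar is the list's median; the vertical position within a list carries no meaning). The median is -1.23 for the costimulatory receptors, 0.65 for their ligands and 0.33 for other TNF receptor superfamily genes.

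Since several of the 10 receptors are induced by activation, genes of resting and of activated T cells were set beside them. Of 6 naive or resting T cell genes 3 were higher, *Il7r* (0.40), *Tcf7* (0.29) and *Ccr7* (0.21), 1 was lower, *Lef1* (-0.91), and *S1pr1* (0.16) and *Klf2* (0.11) did not pass the threshold, all as log2 fold changes. Of 9 activation genes 7 were lower, with log2 fold changes of -1.27 for *Il2ra*, -1.09 for *Egr2*, -1.002 for *Myc*, -0.65 for *Irf4*, -0.57 for *Nr4a1*, -0.31 for *Cd69* and -0.18 for *Tfrc*. Beside both lists stand 32.3% called as lower and 31.5% as higher over all genes tested. The call of *Tfrc* was lost under 6 of 11 alternatives, with RLE, upper-quartile and library-total scaling, the filter of 10 counts, DESeq2 and without DMSO replicate 2, and *S1pr1* was called as higher with library totals, at 0.29 with adjusted p 0.0468. Without DMSO replicate 2 the calls of *Ccr7*, *Il7r* and *Tfrc* were lost, at 0.19 with adjusted p 0.0647, 0.28 with adjusted p 0.0535 and -0.091 with adjusted p 0.469 by edgeR, with ranges over the 11 alternatives of 3.66e-13 to 0.0647, 7.53e-08 to 0.0535 and 1.27e-06 to 0.501. Without MAPK13-IN-1 replicate 3 the log2 fold changes of *Tcf7* and *Ccr7* were 0.15 and 0.12, and that of *Tfrc* without DMSO replicate 3 was -0.29. With library totals the log2 fold changes were 0.34 for *Ccr7*, -0.19 for *Cd69* and -0.058 for *Tfrc*. Over the 11 alternatives those of *S1pr1* ran from 0.065 to 0.29 and those of *Klf2* from 0.0087 to 0.23. *Il2ra*, the alpha chain of the IL-2 receptor, was measured at 963 and 963 CPM under DMSO against 368 and 429.6 CPM under MAPK13-IN-1, with an SE of 0.0688 and an edgeR adjusted p of 2.00e-07. *Cd44*, an adhesion receptor that stays high on activated cells, was higher at 1.06 (SE 0.0600, edgeR adjusted p = 2.63e-07), and *Mki67*, a marker of dividing cells, had 303 and 445 CPM in the MAPK13-inhibitors libraries around 417 ± 0.309 CPM in DMSO (SD, n = 2). The MAPK13-inhibitors libraries thus differed from each other in *Mki67* by more than the groups did. In replicate 1 *Mki67* stood at 71.7 FPKM under DMSO and 37.5 under the inhibitor, a log2 ratio of -0.91. Of the 9 activation genes, *Mki67* among them, 5 had higher values with the inhibitor in that pair and 4 had lower ones. In the count table *Mki67* had a log2 fold change of -0.16 (SE 0.132, edgeR adjusted p = 0.317). With the replicate number as a block it was called as lower, at -0.18 with adjusted p 0.00807. The fitted change was 0.095 with adjusted p 0.0459 without MAPK13-IN-1 replicate 2 and -0.47 with adjusted p 1.49e-24 without MAPK13-IN-1 replicate 3 (range 1.49e-24 to 0.831). *Mapk13* itself was low, with 79 and 74 counts in DMSO and 21 and 51 counts with the inhibitor, a log2 fold change of -1.47 (SE 0.363, edgeR adjusted p = 0.00490). The log2 fold change was -0.94 without MAPK13-IN-1 replicate 2 and -2.29 without MAPK13-IN-1 replicate 3. It stood at 0.191 and 3.28 FPKM in replicate 1. A compound that blocks the kinase need not change its transcript, so this does not check the labels.

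For each of the 10 genes, the gene with the most similar pattern over the 4 count libraries was found among 11840 others, by the Euclidean distance of log2 CPM centered on each gene's mean. The nearest genes were, with the log2 fold changes of the nearest gene and of the receptor gene, *Pacsin2* for *Cd28* (-0.53 and -0.53), *Mynn* for *Icos* (0.21 and 0.21), *Tor1a* for *Cd27* (-0.38 and -0.37), *Irs2* for *Cd2* (-1.26 and -1.26), *Cd200* for *Cd5* (-1.31 and -1.29), *Kmt5c* for *Tnfrsf4* (-1.81 and -1.76), *Knstrn* for *Tnfrsf9* (-1.34 and -1.33), *Mutyh* for *Tnfrsf18* (-2.04 and -1.84), *Ndufa2* for *Tnfrsf8* (-1.20 and -1.19) and *Bnip5* for *Cd226* (-0.72 and -0.76). The distances ran from 0.00569 for *Cd28* to 0.0607 for *Cd226*. With 4 libraries in 2 groups such likeness is common, and the number of genes with a Pearson correlation over 0.95 across the libraries ran from 893 for *Cd226* to 3817 for *Tnfrsf4*. None of the 10 receptors was the nearest gene of another. The call of *Mynn* was lost under 4 of 11 alternatives, with no filter at 0.21 with adjusted p 0.0632, DESeq2 at 0.22 with adjusted p 0.130, without DMSO replicate 2 at 0.21 with adjusted p 0.203 and without DMSO replicate 3 at 0.19 with adjusted p 0.269 (range 0.00379 to 0.269, with log2 fold changes of 0.19 to 0.34). The call of *Bnip5* was lost without DMSO replicate 3, at -0.53 with adjusted p 0.0634 (range 3.54e-05 to 0.0634). *Cd200*, nearest to *Cd5*, encodes a surface ligand of an inhibitory receptor on myeloid cells, and in replicate 1 it stood at 61.7 and 120.1 FPKM, higher with the inhibitor where *Cd5* was lower.

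The 10 genes were chosen by symbol and not by position. Several belong to the same gene family, however, so their positions may not be independent of that choice. In the GRCm38 genome with GENCODE annotation, 4 of the 10 genes lie on chromosome 4, *Tnfrsf8* (chr4:145267137-145315164, minus strand), *Tnfrsf9* (chr4:150914562-150946102, plus strand), *Tnfrsf4* (chr4:156013843-156016612, plus strand) and *Tnfrsf18* (chr4:156026164-156028895, plus strand). *Tnfrsf4* and *Tnfrsf18*, the most decreased of the 10, are 9551 bases apart with 0 protein-coding genes between them. The tested protein-coding genes that flank this pair had smaller changes. *Sdf4*, 232 bases before *Tnfrsf4*, had a log2 fold change of -0.37 (SE 0.0469, edgeR adjusted p = 6.57e-05), and -0.24 with library totals. *Ttll10*, 5944 bases after *Tnfrsf18*, had a log2 fold change of 0.52 (SE 0.435, edgeR adjusted p = 0.317), and its log2 fold change ran from 0.047 without MAPK13-IN-1 replicate 3 to 0.89 without DMSO replicate 2. *Tnfrsf9* lies 124 bases from *Park7*, which was higher at 0.40 (SE 0.0627, edgeR adjusted p = 0.000264), and *Tnfrsf8* lies 20266 bases from *Tnfrsf1b*, which was also higher. Neighboring genes on chromosome 4 thus moved in both directions. On chromosome 1, *Cd28* (chr1:60716800-60773359), *Ctla4* and *Icos* (chr1:60977927-61000320) follow each other on the plus strand, with log2 fold changes of -0.53, -1.62 and 0.21. *Cd5* (chr19:10717116-10739002, minus strand) and *Cd6* are 50338 bases apart on chromosome 19 with 0 protein-coding genes between them, and both were lower. *Vps37c* on the other side of *Cd5*, 2488 bases away, was higher at 0.34 (SE 0.0946, edgeR adjusted p = 0.00918), a call that was lost without DMSO replicate 2 at 0.28 with adjusted p 0.110 (range 0.000113 to 0.110). *Cd27* lies at chr6:125232622-125237010 on the minus strand, 761 bases from *Tapbpl*, which was lower at -0.70 (SE 0.0641, edgeR adjusted p = 5.96e-06), and *Cd2* at chr3:101275899-101287939 on the minus strand. Exons of *Tnfrsf18* overlap those of the antisense gene *Gm16008* over 414 bases. Since the counting is not stated to use strand, reads of these genes cannot be told apart there. *Gm16008* had 534 and 549 counts in DMSO and 372 and 371 counts with the inhibitor, a log2 fold change of -0.93 (SE 0.106, edgeR adjusted p = 2.72e-05). Counts of *Tnfrsf18* in the same order were 7875, 8318, 2556 and 3352. Neighboring genes outside the lists, *Mapk13*, *Gm16008*, *Cd7*, *Tnfrsf1a* and the markers named singly were chosen by position, role or result after values were seen.

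The 4 of the 10 receptor genes that lie on chromosome 4 were lower together in the count table. Their promoter windows of 300 bases around a RefSeq transcript start (GRCm38.p6) are shown for that reason. This did not hold for every TNF receptor gene of the chromosome, since *Tnfrsf1b*, near *Tnfrsf8*, was higher at 1.23 (SE 0.0580, edgeR adjusted p = 9.69e-08). Windows of 6 of the 10 genes were used, 7 in all, and were searched on both strands for TGANTCA, the AP-1 motif, GGANTTTCC, a kappaB-like motif, and CTTTGNA, the TCF/LEF motif, which do not contain one another. AP-1 matches, in capitals, were found in the window of *Tnfrsf8* (chr4:145315115-145315414, minus strand) and in the second window of *Tnfrsf9* (chr4:150927749-150928048, plus strand), where 7.81% of 32851 windows of all genes hold this motif. The windows of *Tnfrsf4* (chr4:156013445-156013744, plus strand) and *Tnfrsf18* (chr4:156026072-156026371, plus strand), the neighbors with the largest decreases, held no match to any of the 3 motifs, nor did the first window of *Tnfrsf9* (chr4:150919905-150920204, plus strand). The window of *Tnfrsf4* ends 99 bases before the start of this gene in the GENCODE annotation, so it does not cover the promoter at that start. Both windows of *Tnfrsf9* lie inside the gene, which starts at chr4:150914562 in that annotation. They do not cover the promoter at that start either, and this includes the window with the AP-1 match. A TCF/LEF match was found only in the window of *Cd27*, against 18.1% of all windows, and GGANTTTCC in none of the 7, against 1.25%. GGANTTTCC does not cover other kappaB forms, and the wider consensus GGGRNNYYCC, added after the windows were seen, matched 2 of 7 windows, that of *Tnfrsf8* and the second of *Tnfrsf9* (not in capitals), against 8.46% of all windows. A match is a description of letters and not a bound site, and no binding was measured here.
Tnfrsf8: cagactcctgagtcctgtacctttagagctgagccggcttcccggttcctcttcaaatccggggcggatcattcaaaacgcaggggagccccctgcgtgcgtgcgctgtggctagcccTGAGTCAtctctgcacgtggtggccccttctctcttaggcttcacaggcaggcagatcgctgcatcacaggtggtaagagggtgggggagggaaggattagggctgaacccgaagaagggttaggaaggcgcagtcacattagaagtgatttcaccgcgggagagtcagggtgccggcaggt
Tnfrsf9 first: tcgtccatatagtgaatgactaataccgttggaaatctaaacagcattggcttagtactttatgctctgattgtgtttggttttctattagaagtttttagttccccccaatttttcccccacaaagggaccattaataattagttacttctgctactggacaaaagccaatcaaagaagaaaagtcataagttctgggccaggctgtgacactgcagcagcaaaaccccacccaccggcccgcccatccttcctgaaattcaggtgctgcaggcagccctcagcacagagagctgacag
Tnfrsf9 second: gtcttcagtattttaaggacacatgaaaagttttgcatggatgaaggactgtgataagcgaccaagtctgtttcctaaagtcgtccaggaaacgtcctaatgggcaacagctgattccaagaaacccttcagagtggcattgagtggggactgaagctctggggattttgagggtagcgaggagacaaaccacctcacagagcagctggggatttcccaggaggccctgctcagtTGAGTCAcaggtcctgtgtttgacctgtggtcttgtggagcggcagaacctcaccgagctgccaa
Tnfrsf4: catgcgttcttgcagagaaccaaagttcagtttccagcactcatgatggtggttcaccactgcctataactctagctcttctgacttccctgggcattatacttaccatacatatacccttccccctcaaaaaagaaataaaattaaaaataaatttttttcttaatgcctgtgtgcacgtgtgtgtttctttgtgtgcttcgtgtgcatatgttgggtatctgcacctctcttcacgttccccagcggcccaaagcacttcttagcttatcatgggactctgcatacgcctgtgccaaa
Tnfrsf18: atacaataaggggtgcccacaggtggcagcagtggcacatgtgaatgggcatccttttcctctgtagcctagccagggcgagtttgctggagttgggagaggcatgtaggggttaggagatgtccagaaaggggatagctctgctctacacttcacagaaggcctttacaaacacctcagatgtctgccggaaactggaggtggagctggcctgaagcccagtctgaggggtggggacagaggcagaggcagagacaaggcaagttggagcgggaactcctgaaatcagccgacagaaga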

How the data were processed

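Poly-A RNA of splenic CD4+ T cells was sequenced in 6 libraries, 3 with DMSO and 3 with MAPK13-IN-1. For replicates 2 and 3 the authors deposited a table of whole-number counts per gene, made per the labels with fastp 0.21.0, HISAT2 2.1.0 (mm10) and StringTie 2.1.5, with DESeq2 1.30.1 named for the comparison; the program that summed the counts is not given in the sources used here. The authors' tables of the replicate 1 pair hold 1 normalized value per gene, after FastQC and HISAT2 (GRCm38). These deposited values were read as FPKM because their ratio to CPM fell with exon length (Spearman correlation -0.605 over 10225 genes).

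The counts were fitted with edgeR 4.0.16 in R 4.3.3 (TMM, filterByExpr with a minimum count of 10 and total of 15, quasi-likelihood test, 16269 genes, Benjamini-Hochberg), 2 against 2 libraries, called at an adjusted p under 0.05. Each SE was calculated back from this test, as the absolute log2 fold change divided by the square root of the F statistic. It is therefore not a measure separate from the p-value. Totals were 26874805 to 33854760 counts, so 3 counts equal 0.0845 to 0.116 TMM-scaled CPM. The replicate 1 pair was compared as a log2 ratio of FPKM + 1, with no test, and was not joined with the counts because unit and kit differ. Alternatives were RLE, upper-quartile and library-total scaling, no filter or 10 counts in every library, DESeq2 1.42.0, a block on replicate number, each library left out, and for FPKM a pseudocount of 0.1 or a minimum of 1.

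Members and lists were chosen with earlier results of these data known. Named genes were all 10 receptors, every gene of the pathway lists of at most 11 genes, the 5 with the smallest p of longer lists with any not listed or below the filter, and each receptor's nearest gene in pattern; markers and neighboring genes were named besides. 4 planned list genes were left out of lists and named genes. Lengths and positions came from GENCODE vM21.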

Additional observations from a re-analysis of the deposited data

Results flagged for a closer look

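For 6 of the 10 costimulatory receptor genes, both MAPK13-inhibitors libraries of the count table lay below both DMSO libraries, while in the replicate 1 pair the value was higher with the inhibitor. The log2 ratios of FPKM + 1 in the replicate 1 pair were *Cd28* 0.20 (count table -0.53), *Cd27* 0.25 (count table -0.37), *Tnfrsf9* 0.83 (count table -1.33), *Tnfrsf18* 0.18 (count table -1.84), *Tnfrsf8* 0.18 (count table -1.19) and *Cd226* 0.59 (count table -0.76). Among all genes called lower in the count table and listed in replicate 1, 43.1% were higher there. Opposite directions of either kind appeared in 30 of the 78 other named genes that the count table calls and replicate 1 lists. This was 38.5%, beside 33.6% of all 10193 such genes. Those that were lower in the count table and higher in the replicate 1 pair had log2 ratios in that pair of *Ctla4* 0.39, *Traf1* 1.44, *Traf2* 0.10, *Nfkb2* 0.84, *Lef1* 0.11, *Cd69* 0.46, *Nr4a1* 0.28, *Egr2* 0.46, *Myc* 0.42, *Cd2bp2* 0.22, *Slamf1* 0.79, *Tnfrsf25* 0.028, *Irs2* 1.40, *Cd200* 0.95, *Bnip5* 0.88, *Tapbpl* 0.27, *Sdf4* 0.26, *Mapk13* 1.84, *Gm16008* 0.070, *Cd3g* 0.10, *Thy1* 1.19, *Foxp3* 0.10, *Cd8a* 0.46, *Cd8b1* 1.02, *Ikzf4* 0.76 and *Tnfrsf1a* 0.27. Those that were higher in the count table and lower in the replicate 1 pair had *Ngfr* -0.0040, *Tnfrsf13b* -0.17, *Mynn* -0.040 and *Park7* -0.22. Of these, *Ngfr*, *Tnfrsf25*, *Mynn*, *Gm16008*, *Traf2*, *Cd3g* and *Foxp3* lie within 0.1 of 0. The difference between the preparations was not tested, since the replicate 1 pair holds 1 library per group in another unit, and library kit and other differences between the preparations cannot be told apart.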

How the results depend on the processing

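The 11 alternatives of the count table were RLE and upper-quartile normalization, library totals, no filter, a filter of 10 counts in each library, DESeq2, a replicate block, and 4 fits that each left out 1 library. Over these, the 10 receptor genes gave 110 log2 fold changes, of which 107 kept direction and side of the threshold, 0 changed sign and 3 lost the threshold. The values that lost it were *Icos* without DMSO replicate 2 (0.22 with adjusted p 0.0833) and without DMSO replicate 3 (0.17 with adjusted p 0.180) and *Cd27* without DMSO replicate 3 (-0.32 with adjusted p 0.0764). The count of receptor genes called as higher was therefore 0 to 1 over the fits without 1 library, and it was 0 when an absolute log2 fold change over 1 was asked for, since *Icos* lies below that. The count called as lower was 8 to 9 over the fits without 1 library. With the replicate number as a block, 10645 genes were called, against 10374 without it. In the fits without 1 library, the lone library of its group is assumed to vary like the other group.

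Of the 91 other named genes' 999 values, 939 kept direction and side, 35 lost the threshold, 18 gained it and 7 changed sign. The last were *Cd4* with RLE (0.013), upper-quartile normalization (0.080), library totals (0.12), the filter of 10 counts (0.044), DESeq2 (0.0079) and without MAPK13-IN-1 replicate 2 (0.041) and *Mki67* without MAPK13-IN-1 replicate 2 (0.095). Over the fits without 1 library *Cd4* ranged from -0.050 to 0.041 and *Mki67* from -0.47 to 0.095. The cause was not tested. Library totals moved the median log2 fold change of all genes by 0.13. A pseudocount of 0.1 or a minimum of 1 FPKM changed the sign of 0 of the 10 ratios in the replicate 1 pair. Only 2 libraries per group entered the tests, the receptor genes had at least 176 counts, and the depth of the replicate 1 pair is unknown.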
